A study of Mus musculus with 6 samples.

Results

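Reads per gene were compared between 2 sections of wild-type whole mouse embryo at stage E11.5, one captured with an antibody to H3K27ac and the other with an antibody to H3K4me3. The members are the 17762 genes that both tables hold, of 18943 in the H3K27ac table, 18066 in the H3K4me3 table and 19378 in the 6 sections of the series. For each gene the mean over spots was divided by the section's mean over the shared genes, and the log2 ratio of H3K27ac over H3K4me3 was taken, so no measured value chose a gene. A further 1181 genes were held by the H3K27ac table and not by the H3K4me3 table, with a median of 3 reads, and 304 the other way round, with a median of 2 reads. The embryo sections were 16 µm cryosections fixed in paraformaldehyde. Each lay on an array of DNA barcodes that mark position, and protein A-Tn5 transposase loaded through the antibodies cut the chromatin, which the array captured. The other sections were embryo H3K27me3, adult wild-type brain H3K4me3, and H3K27ac in decalcified, paraffin-embedded adult paws with collagen-induced arthritis and without, both at 42 days. Whether the embryo sections came from 1 animal, and their strain, were not given in the sources used here.

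Both marks sit on active genes. H3K4me3 is written around transcription start sites by the Set1 and Kmt2 complexes, most densely where the promoter is rich in CpG, and it is read by the general transcription machinery. H3K27ac is written by the acetyltransferases p300 and CBP at active promoters and also at enhancers, on the residue that Polycomb methylates at silenced developmental genes. A mid-gestation embryo holds beating heart, segmenting somites, limb buds, a patterned neural tube and a liver that makes blood, so a whole-embryo section mixes the chromatin of all of these.

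With 1 section for each mark there was no replicate and no test between marks. All intervals are exact 95% binomial intervals that cover counting error only, since the values carry no correction known here for copies of one molecule, and a difference between marks cannot be told apart from a difference between the 2 sections. The sections held 548923 reads in 251 spots (H3K27ac; 571 to 6318 per spot, median 1972) and 403483 reads in 248 spots (H3K4me3; 246 to 4578 per spot, median 1481.5). A spot is a small area that can hold several cells. The mean over shared genes was 30.5 and 22.6 reads and the median 13 and 8. Of 30 organ markers 29 were held by both tables, and 15 of them lay above the section's median gene in H3K27ac and 17 in H3K4me3. They held 2 to 85 reads in H3K27ac and 1 to 423 in H3K4me3, with liver and blood markers summing to 35 and 22 reads, endothelial markers to 28 and 37, and heart markers to 80 and 81. Albumin, the chief liver secretion, held 3 and 1 reads. Liver, blood and endothelial genes were therefore near the floor of both sections.

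For most genes with at least 20 reads the marks stood within 2-fold of the typical ratio. A small class held nearly all of its reads in 1 of the sections. Across the shared genes Spearman's rho between the reads of the sections was 0.69. The median log2 ratio was 0.20, the central 50% of genes lay between 0.51 below and 0.57 above it, and 1% of genes lay more than 4.13 below and 1% more than 3.65 above. A gene is said to lean to a mark where its log2 ratio, with 0.1 of the section mean added to each level, stood at least 1 (2-fold) from that median and it held at least 20 reads over both sections, which 9760 genes (54.9%) did. By that rule 1830 genes (18.8%) leaned to H3K27ac and 1462 (15.0%) to H3K4me3. At 8-fold the counts were 299 (3.06%) and 331 (3.39%). With a pseudocount of 1 the 4 counts were 727, 695, 90 and 141. Where 100 reads were required, the 2-fold counts were 583 and 536 of 1819 genes, so most of those genes leaned. A gene can reach either minimum through 1 section alone. The counting interval of the ratio left out the median for 1680 and 1462 of the 2-fold genes and for all 299 and all 331 of the 8-fold genes. The 299 genes took 18.2% of the shared genes' reads in the H3K27ac section and 0.630% in the H3K4me3 section, and the 331 genes took 29.8% in the H3K4me3 section and 1.09% in the H3K27ac section. At the edge of the 8-fold rule stood Rxfp3, a relaxin-family peptide receptor, with 50 against 2 reads just inside and Vax1, a homeobox factor, with 123 against 8 just outside. On the other side Tnks, a tankyrase, held 8 against 55 just inside and Llph 9 against 60 just outside. The 2-fold edge lay between Tmem132b (38 against 11) and Antxr2 (41 against 12), and between Ift88 (18 against 25) and 9930021J03Rik (8 against 12). These 8 genes are named for their place alone. From here on, reads are given as those in H3K27ac against those in H3K4me3, and the counting interval of a log2 ratio is that of the ratio without the pseudocount. Sums given as "at least" are lower bounds, as some reads of the fullest genes could not be recovered. Where only the larger sum is a lower bound, the ratio is too small in size. Where both sums are, the true ratio can lie on either side of the one given.

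**Figure D1:**
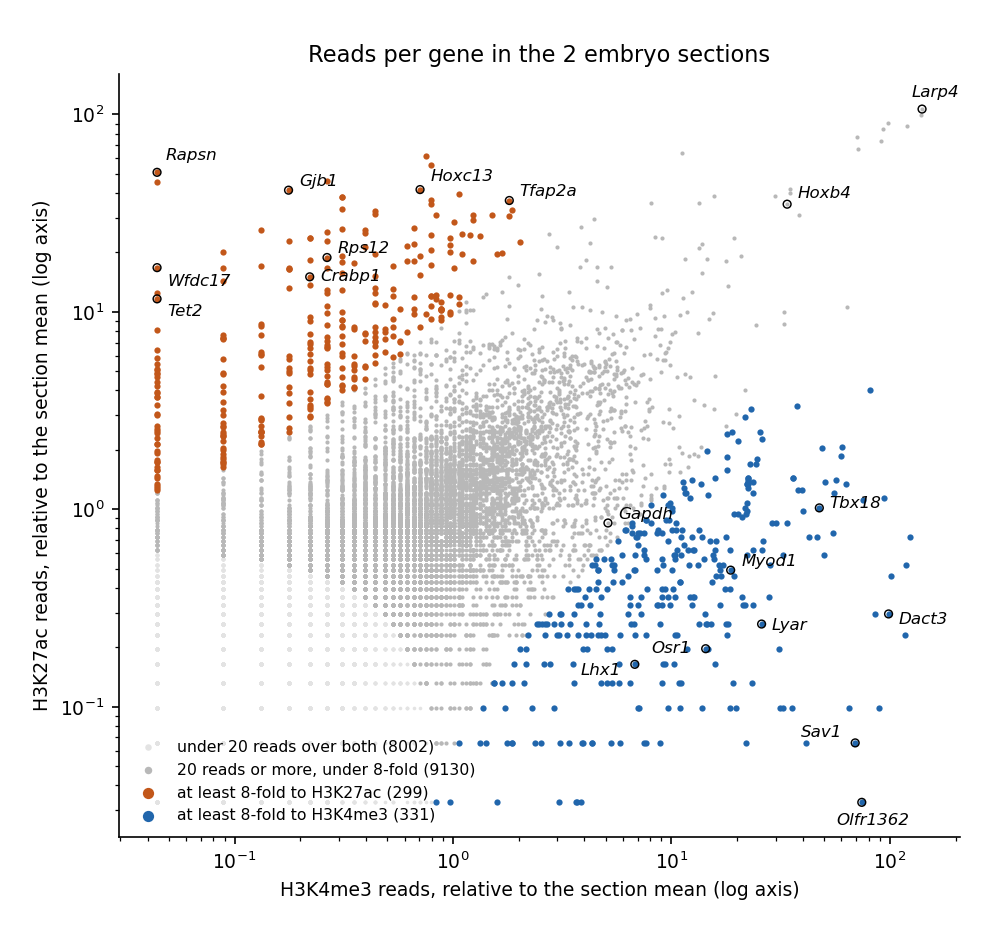
Reads of each shared gene in the H3K27ac section (vertical) against the H3K4me3 section (horizontal), each divided by the section's mean over the 17762 shared genes, on log axes. Orange points are the 299 genes at least 8-fold to H3K27ac and blue points the 331 at least 8-fold to H3K4me3. The cloud runs along the diagonal, and the coloured genes form arms along each axis, with Rapsn at the top left and Olfr1362 at the bottom right.

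The genes farthest from the diagonal were an assorted set. Among those whose sums are exact, Wfdc17, a secreted whey acidic protein, held 511 against 1, with a log2 ratio of 8.57 without the pseudocount and a counting interval of 6.08 to 13.88. Ppm1l, a protein phosphatase, held 791 against 3, with a log2 ratio of 7.61 without the pseudocount and a counting interval of 6.06 to 9.89. Car12, a membrane carbonic anhydrase, held 612 against 2, with a log2 ratio of 7.83 without the pseudocount and a counting interval of 5.97 to 10.88. None of these is a gene that defines an organ of this stage. Tet2, which oxidises methylated cytosine in DNA, held 355 against 1, with a log2 ratio of 8.04 without the pseudocount and a counting interval of 5.56 to 13.35. Rad54l, of homologous recombination, held 381 against 1, with a log2 ratio of 8.14 without the pseudocount and a counting interval of 5.66 to 13.45. Srp72, of the signal recognition particle, held 435 against 2, and Irgm2, an immunity-related GTPase, 521 against 3. Wfdc18 held the same numbers of H3K27ac reads as its neighbour Wfdc17 (511 against 2), and Septin10 and Sowahc each held 723 against 5. In H3K27me3 these 10 genes held 2 to 19 reads.

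On the H3K4me3 side, Exph5, a Rab27 effector, held 4 against 528, a log2 ratio of -6.66 (interval -9.35 to -6.11). Wasf2, an actin regulator of the WAVE family, held 3 against 448, with a log2 ratio of -7.65 without the pseudocount and a counting interval of -9.93 to -6.09. Lyar, a nucleolar protein, held 8 against 586, a log2 ratio of -6.16 (interval -7.84 to -5.64). Each of these held fewer than 10 reads in H3K27ac. Suco held 4 against 432, a log2 ratio of -6.37 (interval -9.07 to -5.82). Wdr12, of ribosome biogenesis, held 11 against 634, a log2 ratio of -5.93, and was the member of this group with many H3K27me3 reads, 1766. Gm826, a predicted gene, held 5 against 360, a log2 ratio of -5.92 (interval -8.23 to -5.36). Aff2, Ccdc149, Fam124b and Zfp729a complete the 10, with 248 to 634 H3K4me3 reads against 3 to 11 H3K27ac reads over the 10. Where lower bounds are allowed, the highest ratios began with Rapsn, which anchors acetylcholine receptors at the nerve-muscle junction (at least 1553 against 1), Lce1i of the cornified skin envelope (at least 1394 against 1), the connexin Gjb1 (at least 1261 against 4) and epiplakin, Eppk1 (at least 1407 against 6). Ppfia3 and Lin7b, neighbours that both act at synapses, held at least 1162 against 7 and at least 1159 against 7. The lowest began with the olfactory receptor Olfr1362 (1 against at least 1685), Ivd of leucine breakdown (3 against at least 2011) and Sav1, a Hippo pathway adaptor (2 against at least 1572), followed by Anks4b (7 against at least 2666), Gsdmc3 (3 against at least 1479) and Dact3, a Wnt antagonist (9 against at least 2235). Gsdma3, Ppp1r3e, Cd1d1 and Zc3h13 were the rest, with lower bounds of 933 to 2675 reads in H3K4me3 and with 2 to 16 reads in H3K27ac. Genes of skin, nose, nerve and metabolism thus stood among these extremes.

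The promoters of these genes spanned the CpG range in each direction, and 4 are printed to show it: for each direction, the one with the lowest and the one with the highest CpG observed over expected among the exact-sum genes with a promoter in the RefSeq table (9 of 10 and all 10). Each runs 5′ to 3′ over 300 bases, from 250 before to 50 after the gene's start in GRCm38.p6, with every CpG in capitals. Wfdc17 (chr11:83703806-83704105, plus strand) holds 1 CpG, a ratio of 0.0758, and Tet2 (chr3:133544341-133544640, minus strand) holds 57, a ratio of 1.17. Gm826 (chr2:160327445-160327744, minus strand) holds 3, a ratio of 0.179, and Lyar (chr5:38220232-38220531, plus strand) holds 43, a ratio of 1.19.
Wfdc17: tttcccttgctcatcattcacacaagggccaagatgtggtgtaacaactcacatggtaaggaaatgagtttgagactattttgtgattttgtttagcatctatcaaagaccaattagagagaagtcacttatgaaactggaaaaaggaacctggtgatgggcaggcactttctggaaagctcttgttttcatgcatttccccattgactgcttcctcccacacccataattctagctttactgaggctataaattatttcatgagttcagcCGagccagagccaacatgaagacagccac
Tet2: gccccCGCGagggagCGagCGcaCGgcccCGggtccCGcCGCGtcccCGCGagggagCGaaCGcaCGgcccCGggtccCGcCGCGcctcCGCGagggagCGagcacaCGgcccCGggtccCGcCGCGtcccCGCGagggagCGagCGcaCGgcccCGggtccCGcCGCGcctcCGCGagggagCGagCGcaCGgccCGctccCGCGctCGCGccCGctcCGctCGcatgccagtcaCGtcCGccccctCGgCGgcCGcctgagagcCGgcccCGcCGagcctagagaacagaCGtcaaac
Gm826: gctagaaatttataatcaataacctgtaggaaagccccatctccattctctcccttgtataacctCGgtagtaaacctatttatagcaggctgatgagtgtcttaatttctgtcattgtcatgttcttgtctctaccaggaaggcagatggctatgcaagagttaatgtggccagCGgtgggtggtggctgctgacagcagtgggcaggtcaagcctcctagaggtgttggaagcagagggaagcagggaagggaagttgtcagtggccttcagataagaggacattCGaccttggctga
Lyar: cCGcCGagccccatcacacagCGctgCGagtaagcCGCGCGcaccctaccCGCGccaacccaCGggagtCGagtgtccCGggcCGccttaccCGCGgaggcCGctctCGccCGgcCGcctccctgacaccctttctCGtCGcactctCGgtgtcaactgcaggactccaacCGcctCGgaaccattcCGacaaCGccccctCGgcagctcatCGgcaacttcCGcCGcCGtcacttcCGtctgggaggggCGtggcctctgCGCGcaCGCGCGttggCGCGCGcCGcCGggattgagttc

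CpG density was much alike in the classes. Over the 7745 genes with a promoter and at least 20 reads, Spearman's rho between the log2 ratio and CpG observed over expected was -0.013, and over the 1453 with at least 100 reads it was 0.0024. These are correlations across genes, which share the 2 libraries and are not independent. In 5 bins of CpG density the share leaning 2-fold to H3K27ac ran from 17.8% to 20.3% and the share leaning to H3K4me3 from 12.7% to 17.7%, and at 8-fold the shares ran from 2.62% to 3.53% and from 2.98% to 4.13%. The median CpG ratio was 0.680 for the 8-fold genes of H3K27ac and 0.630 for those of H3K4me3, beside a median promoter ratio over all genes with at least 20 reads of 0.681. Of the 242 and 264 promoters in the 8-fold classes, searched on both strands, TATAAA was found in 9.09% and 13.6%, beside 9.17% of the 7745 and 14.2% of all 27025 promoters of the table. The letters CCAAT were found in 40.1% and 37.5%, beside 37.8% of the 7745 and 37.9% of the table. GGGCGG, the core of the GC box, was found in 54.5% and 50%, beside 57.1% and 35.9%. A match is only a run of letters, and these windows say nothing of which factor binds.

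**Figure D2:**
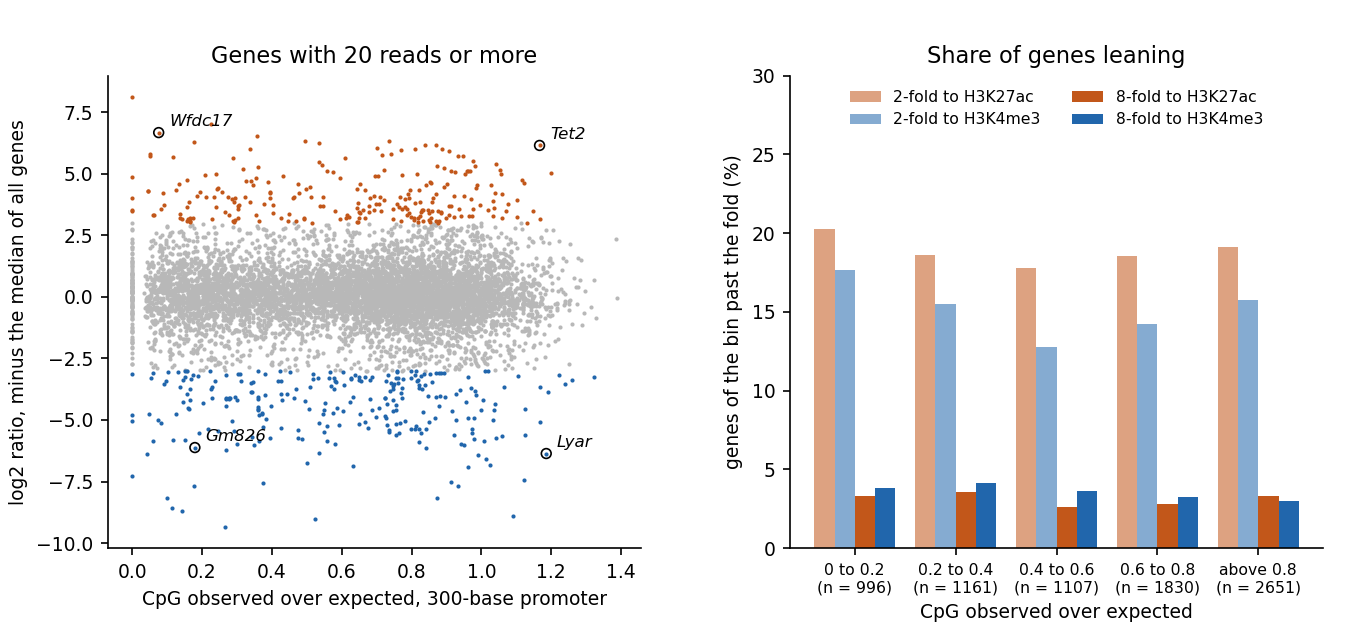
Left, log2 ratio of H3K27ac over H3K4me3 minus the median of all genes (vertical) against CpG observed over expected in the 300-base promoter (horizontal), for genes with at least 20 reads; orange and blue points are past 8-fold and the printed promoters are ringed. Right, share of genes of each CpG bin past 2-fold or 8-fold, in percent; the 2-fold bars for H3K27ac lie between 17.8% and 20.3% in all 5 bins.

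The leaning genes were spread over the whole of each section. The 299 genes made up 11.0% to 23.7% of the reads of a spot in the H3K27ac section (median 17.9%) and up to 2.06% in the H3K4me3 section (median 0.624%, with no such read in 5 spots). The 331 genes made up 20.2% to 37.7% in the H3K4me3 section (median 30.0%) and 0.382% to 2.20% in the H3K27ac section (median 1.03%). So the lowest spot of one section stood above the highest of the other for both sets; since these genes were chosen on the sums of the same spots, this describes how even they were and is no support for them. Rapsn was found in 246 of 251 spots, where spot totals alone would give 247, and Tet2 in 179, where they would give 178. Lyar was found in 199 of 248 spots, where spot totals would give 201. The variance of their reads over spots, relative to that expected from the spot totals (chi-square over degrees of freedom), was 0.874, 0.995 and 1.05, and the median over the 8-fold genes with at least 100 reads was 1.03 in H3K27ac and 1.04 in H3K4me3. A value of 1 is what even scatter gives. Rapsn's sum is a lower bound, so its 0.874 rests on incomplete counts. Array rows differed even so. In the H3K27ac section the share of the 299 genes was 12.9% to 17.0% over the 12 spots of row 45 (median 15.0%), and each of the 13 spots of row 44 lay above that range (median 18.9%, up to 20.8%). In the H3K4me3 section the share of the 331 genes had its lowest row median in row 53 (25.2%, spots 20.2% to 30.5%) and its highest in row 51 (33.0%, spots 30.1% to 37.3%), and row 45 was low there too, with a median of 26.8%. What set these rows apart was not tested. The muscle gene Rapsn, the skin gene Lce1i and the synaptic gene Ppfia3 had H3K27ac reads in 246, 243 and 241 of 251 spots.

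**Figure D3:**
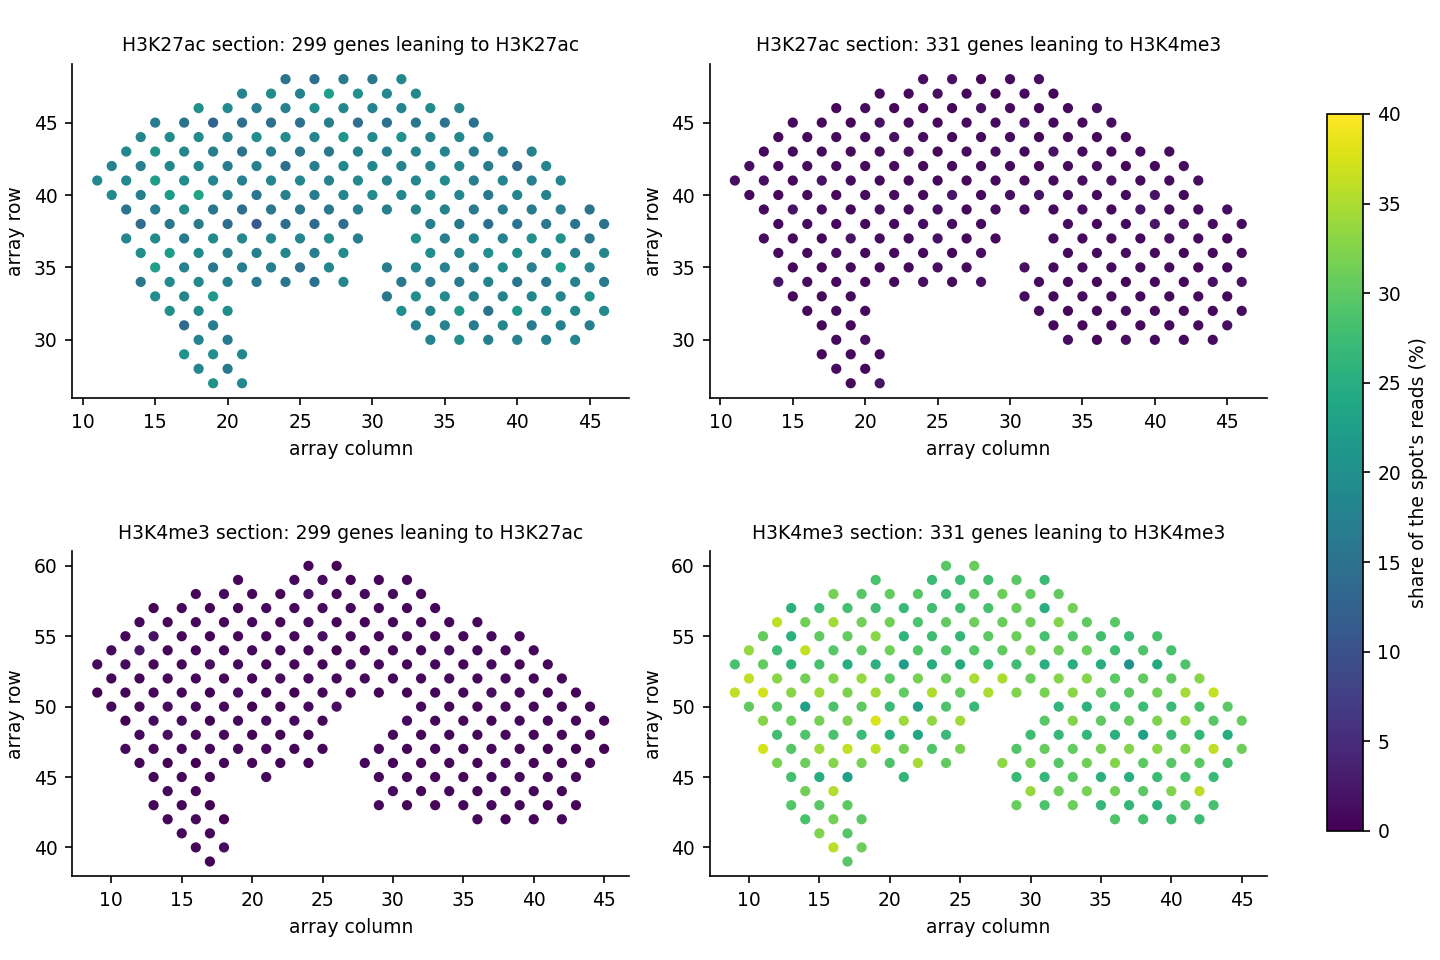
Each point is 1 array spot, placed by its array column and row, and coloured by the share of its reads, in percent, that fell in the 299 genes leaning to H3K27ac (left) or the 331 leaning to H3K4me3 (right). Top, H3K27ac section; bottom, H3K4me3 section. Every spot of the matching section is high (at least 11.0% and 20.2%) and every spot of the other low (at most 2.06% and 2.20%).

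The lean of a gene was much the same in odd and even columns of the array. Reads were counted separately in these columns, which hold different spots of the same sections and so show counting and place, not animals. Over the 4808 genes with at least 20 reads in each set of columns, rho between the ratios of the sets was 0.864, and over the 695 with at least 100 it was 0.986. Of 300 genes 8-fold to H3K27ac in odd columns 239 (79.7%) were so in even columns, and of 326 to H3K4me3 it was 277 (85.0%). With at least 100 reads these were 147 of 162 (90.7%) and 169 of 175 (96.6%).

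Some neighbouring genes of the 8-fold classes held the very same reads, so the classes number fewer loci than genes. The share of such pairs among all adjacent genes is not given here. Of the 29 pairs of adjacent genes that were both 8-fold to H3K27ac, 24 had the same count in at least 90% of the spots with a read, and so had 19 of the 28 pairs for H3K4me3. Septin10 and Sowahc were equal in 223 of 223 spots, Wfdc17 and Wfdc18 in 190 of 192, and Lyar and Zbtb49 in 198 of 199. Other adjacent pairs held different reads, such as Cldn18 and Sox14, equal in 14 of 198 spots (7.07%). Over all 8-fold genes with at least 50 reads, 46 of 291 (15.8%) and 34 of 311 (10.9%) had a partner that was equal in at least 90% of spots, and all but 6 of the partners lay within 3 genes. Those 6 are predicted genes on the X chromosome (Gm10058, Gm10230, Gm10486, Gm14632, Gm14819 and Gm4836, chosen after their values were seen, with 499 to 507 H3K4me3 reads each), and which of them the reads came from is uncertain. Each also had an adjacent gene equal in at least 90% of spots, such as Gm10230 with Gm10058 (98.9%) and Gm10486 with Gm14819 (99.0%). Counting adjacent called genes as 1 locus gave 269 loci for H3K27ac and 303 for H3K4me3. Over all 17713 adjacent pairs, rho between the ratios of neighbours was 0.081. Among adjacent genes with at least 100 reads it was 0.442 (302 pairs), and at a step of 2 and 3 genes it was 0.039 (221 pairs) and -0.062 (193 pairs). How far from a gene a read could lie and still be counted for it was not given in the sources used here.

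Genes for the writers, readers and erasers of the marks themselves leaned in both directions. Of the genes for H3K4 methylation 13 of 23 held at least 20 reads, and 1 leaned to H3K27ac and 3 to H3K4me3. Phf8, a demethylase that binds H3K4me3, held 76 against 1, with a log2 ratio of 5.82 without the pseudocount and a counting interval of 3.30 to 11.14. Taf3, the TFIID subunit that reads H3K4me3, held 26 against at least 768, a log2 ratio of -5.16. Setd1b, a writer of H3K4me3, held 173 against 212, a log2 ratio of -0.71, within 2-fold of the median, and Kmt2d, an enhancer methyltransferase, held 207 against 132, a log2 ratio of 0.22. Kdm1b, an H3K4 demethylase, held 6 against 21, a log2 ratio of -1.79. Of the genes for H3K27 acetylation 19 of 21 held at least 20 reads, and 5 (26.3%) leaned to H3K27ac and 1 (5.26%) to H3K4me3, beside 18.8% and 15.0% of all genes. The deacetylases Hdac3 and Hdac4 held 60 against 5, a log2 ratio of 2.69, and 145 against 17, a log2 ratio of 2.51 (interval 1.93 to 3.48). Hdac3 shared its H3K27ac reads with its neighbour Rell2, equal in 96.4% of spots. The acetyltransferases themselves stood within 2-fold: Ep300 held 30 against 33, a log2 ratio of -0.52, and Crebbp held 120 against 78, a log2 ratio of 0.19. Of 23 Polycomb and H3K27 demethylase genes 4 leaned to H3K27ac and 2 to H3K4me3, among them the reader Cbx8 with 118 against 26, a log2 ratio of 1.67, and the histone-binding subunit Rbbp7 with 35 against 73, a log2 ratio of -1.41.

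Developmental transcription factors leaned in both directions. Where the leaning genes of a family all leaned to a single mark, they were few. Over 14 lists, the Hox clusters included, 159 genes held at least 20 reads, of which 18.9% leaned to H3K27ac and 9.43% to H3K4me3, beside 18.8% and 15.0% of all genes. Among the LIM homeobox factors, Lmx1b, which patterns the dorsal limb and midbrain, held 208 against 6, a log2 ratio of 4.25 (interval 3.54 to 6.15), while Lhx1, of kidney and head formation, held 5 against 154, a log2 ratio of -4.71 (interval -7.02 to -4.12). Lhx5, of the forebrain, held 215 against 19, a log2 ratio of 2.93. So members of 1 family stood at opposite ends. In the T-box family Tbx18, of the sinus node and somites, held 31 against at least 1077, a log2 ratio of -5.42 (interval -6.11 to -5.03), and Tbx4, of the hind limb, held 162 against 49, a log2 ratio of 1.26. Dlx3, of placenta and skin, held 172 against 5, a log2 ratio of 4.16, and Evx2, which lies beside the HoxD cluster, held 10 against 196, a log2 ratio of -4.35. Tfap2a, of neural crest and face, held at least 1118 against 41, a log2 ratio of 4.27, its relative Tfap2d 5 against 208, a log2 ratio of -5.14 (interval -7.45 to -4.56), and Alx1, of the skull, 16 against 272, a log2 ratio of -4.28. Of 12 Sox genes 2 (16.7%) leaned to H3K27ac, near the 18.8% of all genes, and 0 to H3K4me3. The 2 were Sox14 at 378 against 10, a log2 ratio of 4.53, and the neural crest factor Sox10 at 112 against 6, a log2 ratio of 3.37. Of the Gata and Zic factors 3 of 9 leaned to H3K27ac and 0 to H3K4me3: Zic5 held 220 against 24, a log2 ratio of 2.66, Zic1 142 against 24 and Zic4 139 against 25. Zic1 and Zic4 both lie on chromosome 9, and whether they share reads is not given here. Of 30 forkhead genes 7 leaned to H3K27ac and 2 to H3K4me3, with Foxn3 at 203 against 6, a log2 ratio of 4.21, and Foxj2 at 15 against 80, a log2 ratio of -2.62. Pax3, of neural crest and muscle precursors, held 39 against 107, a log2 ratio of -1.81. The lists hold 6 to 30 tested genes each, so these counts are small.

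Hox genes, which pattern the body axis, mostly held both marks alike. Of 37 Hox genes 35 had at least 20 reads, their median log2 ratio was 0.19 beside 0.20 for all genes, 18 lay above the median, and 6 leaned to H3K27ac and 3 to H3K4me3, where 18.8% and 15.0% of all tested genes did. Hoxc13, the last gene of its cluster and needed for hair and nails, held at least 1270 against 16, a log2 ratio of 5.69 (interval 5.18 to 6.69). In the same cluster Hoxc10, of the lumbar region, held 26 against 150, a log2 ratio of -2.82 (interval -3.62 to -2.35). Hoxa3, which patterns the throat, held 212 against 50, a log2 ratio of 1.61, and 550 reads in H3K27me3. Hoxd12, of the distal limb, held 140 against 36, a log2 ratio of 1.47, and Hoxb5 held 37 against 101, a log2 ratio of -1.80. Hoxb4, chosen after its value was seen, was high in all 3 embryo sections, with at least 1071 against at least 767 in the active marks and 1388 in H3K27me3. Of the HoxB genes 2 of 10 lay above the median ratio (20.0%), as did 49.8% of all shared genes. In the HoxA, HoxC and HoxD clusters the share was 70.0% of 10, 37.5% of 8 and 66.7% of 9, and all 4 counts are small. In H3K27me3, 9 of the 37 held at least 100 reads, a larger share than the 7.04% of all shared genes.

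Signalling genes showed the same mixture. Over the 6 lists 102 genes were tested, of which 17.6% leaned to H3K27ac and 13.7% to H3K4me3, beside 18.8% and 15.0% of all genes. Among ligands, Wnt9b, which induces kidney tubules, held 45 against 6, a log2 ratio of 2.11, and Wnt11, of kidney branching and cell movement, held 98 against 355, a log2 ratio of -2.25. Fgf8, of limb ridge and isthmus, held 7 against 60, a log2 ratio of -3.06 (interval -4.90 to -2.40), and the Notch ligand Dll1, of somite segmentation, held 35 against 83, a log2 ratio of -1.59. Dll1 was the 1 of 14 Notch genes that leaned. Among receptors, Fgfr4 and Fgfr1 leaned to H3K27ac, Fgfr4 with 239 against 24, a log2 ratio of 2.78 (interval 2.28 to 3.56), and Fgfr1 with 191 against 26, a log2 ratio of 2.35. The retinoic acid receptor Rarg leaned the other way, with 93 against 449, a log2 ratio of -2.66. Among intracellular and secreted modulators, Crabp1, which binds retinoic acid in the cell, held 459 against 5, a log2 ratio of 5.56 (interval 4.86 to 7.72), the hedgehog effector Gli2 held 164 against 31, a log2 ratio of 1.90, and the Wnt antagonist Sfrp2 held 28 against 101, a log2 ratio of -2.16. Of 21 genes of the Bmp and Tgf-beta list 7 (33.3%) leaned to H3K27ac and 2 (9.52%) to H3K4me3, with Bmp6 at 70 against 10, a log2 ratio of 2.15.

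Organ genes leaned to each mark in near equal number. Over 7 lists 117 genes were tested, of which 14.5% leaned to H3K27ac and 15.4% to H3K4me3, beside 18.8% and 15.0% of all genes. In the heart list 1 of 14 leaned to H3K27ac and 2 to H3K4me3. Myl3, a ventricular light chain, held 35 against 7, a log2 ratio of 1.61, Smyd1, a muscle methyltransferase, 16 against 98, a log2 ratio of -2.82, and Myl7, the atrial light chain, 23 against 47, a log2 ratio of -1.35. In the somite and muscle list 3 of 20 leaned to H3K27ac and 5 to H3K4me3, Mesp2, of segmentation, with 166 against 6, a log2 ratio of 3.93, and desmin, Des, with 97 against 12, a log2 ratio of 2.38. The muscle master factor Myod1 held 15 against 423, a log2 ratio of -4.99 (interval -6.10 to -4.51). In the neural list 5 of 23 leaned to H3K27ac and 0 to H3K4me3, led by the forebrain factor Otx1 with 183 against 4, a log2 ratio of 4.46 (interval 3.71 to 6.98), and the sensory neuron factor Pou4f1 with 78 against 17, a log2 ratio of 1.64. In the fetal liver and blood list 4 of 14 leaned to H3K4me3 and 1 to H3K27ac. Prox1, of liver and lymphatics, held 98 against 220, a log2 ratio of -1.57, and the erythropoietin receptor Epor held 19 against 4, a log2 ratio of 1.39. Of the gut, lung and kidney genes 3 leaned each way of 20. Cdx4, of the tail bud and hindgut, held 147 against 1, with a log2 ratio of 6.77 without the pseudocount and a counting interval of 4.27 to 12.08. The receptor Ret, of the enteric nerves and ureteric bud, held 136 against 11, a log2 ratio of 2.96, while its ligand Gdnf held 19 against 283, a log2 ratio of -4.12. Osr1, of the early kidney, held 6 against 325, a log2 ratio of -5.61 (interval -7.64 to -5.05). A receptor and its ligand thus leaned in opposite directions. In the endothelial list 0 of 11 leaned to H3K27ac and 1 to H3K4me3. In the limb and cartilage list 4 of 16 leaned to H3K27ac and 3 to H3K4me3, among them the bone factor Runx2 with 69 against 16, a log2 ratio of 1.55, Msx2, of limb and skull, with 25 against 52, a log2 ratio of -1.38, and Tbx5, of forelimb and heart, with 24 against 43, a log2 ratio of -1.17.

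Housekeeping genes, whose promoters carry both marks in most cells, leaned both ways too. Of 161 tested over 7 lists 15.5% leaned to each mark, beside 18.8% and 15.0% of all genes. Of 35 ribosomal protein genes 6 leaned each way. Rps12 held 575 against 6, a log2 ratio of 5.70 (interval 5.02 to 7.61), and Rpl22 held 8 against 105, a log2 ratio of -3.71 (interval -5.39 to -3.11). Cox4i1, of respiratory complex IV, held 77 against 5, a log2 ratio of 3.03, with the same H3K27ac reads as its neighbour Emc8 in 98.5% of spots. Ndufs7, of complex I, held 2 against 77, with a log2 ratio of -5.70 without the pseudocount and a counting interval of -8.77 to -3.79. Of the 86 oxidative phosphorylation genes 38.4% lay above the median ratio, as did 49.8% of all shared genes. That list is 1 of 43 lists of at least 5 members. Their median log2 ratios ran from -0.17 to 0.61, and their shares above the median of all genes from 20.0% to 72.7%. Gapdh, of glycolysis, held 26 against 116, a log2 ratio of -2.45 (interval -3.26 to -1.96), and Eno3, the muscle enolase, 109 against 30, a log2 ratio of 1.37. The replication factor Gins2 held 22 against 401, a log2 ratio of -4.44 (interval -5.31 to -4.00), and cyclin D2, Ccnd2, held 75 against 574, a log2 ratio of -3.31, with 894 reads in H3K27me3. Mcm5 and Mcm2, of 1 helicase, stood apart: Mcm5 held 93 against 10, a log2 ratio of 2.54, and Mcm2 32 against 165, a log2 ratio of -2.68, the latter with its neighbour Tpra1 equal in 89.6% of spots. Eif3k, of translation initiation, held 113 against 1, with a log2 ratio of 6.39 without the pseudocount and a counting interval of 3.88 to 11.71, read for read those of its neighbour Map4k1 in H3K27ac. Among proteasome subunits Psma5 held at least 903 against 100, a log2 ratio of 2.72, and Psmc5 4 against 34, a log2 ratio of -2.79, sharing H3K4me3 reads with Ftsj3 in 96.6% of spots. Hnrnpa1, a splicing factor, held 34 against 110, a log2 ratio of -2.03, of which 96.5% of spots equalled its neighbour Cbx5.

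Genes used mainly in later or other tissues were among the leaning genes in both directions. Of 205 olfactory receptor genes, which serve smell, 41 held at least 20 reads, and 13 (31.7%) leaned to H3K27ac and 5 (12.2%) to H3K4me3, beside 18.8% and 15.0%. The 205 had medians of 5 against 2 reads, and a member could reach 20 through 1 section alone. Over all 205 the median log2 ratio was 0.20, as over all shared genes, and 46.3% lay above it. Among them Olfr1247 held 161 against 3, with a log2 ratio of 5.32 without the pseudocount and a counting interval of 3.74 to 7.61. In the cornified envelope list, of late skin, 4 of 25 were tested and 2 leaned to H3K27ac, and of 9 vomeronasal and taste receptors 3 leaned each way. Over the 3 lists the shares were 33.3% and 14.8% of 54 genes, and the median log2 ratio of all 260 members was 0.20. Among the classes of unnamed genes, 175 predicted genes gave 18.3% and 22.9%, 189 RIKEN cDNA genes 16.4% and 14.3%, and 202 zinc finger genes 20.3% and 13.9%. Zfp689 held at least 1207 against 24, a log2 ratio of 5.10, and Zfp36, which destabilises messenger RNA, 19 against 422, a log2 ratio of -4.70. No microRNA gene was among the members.

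**Figure D4:**
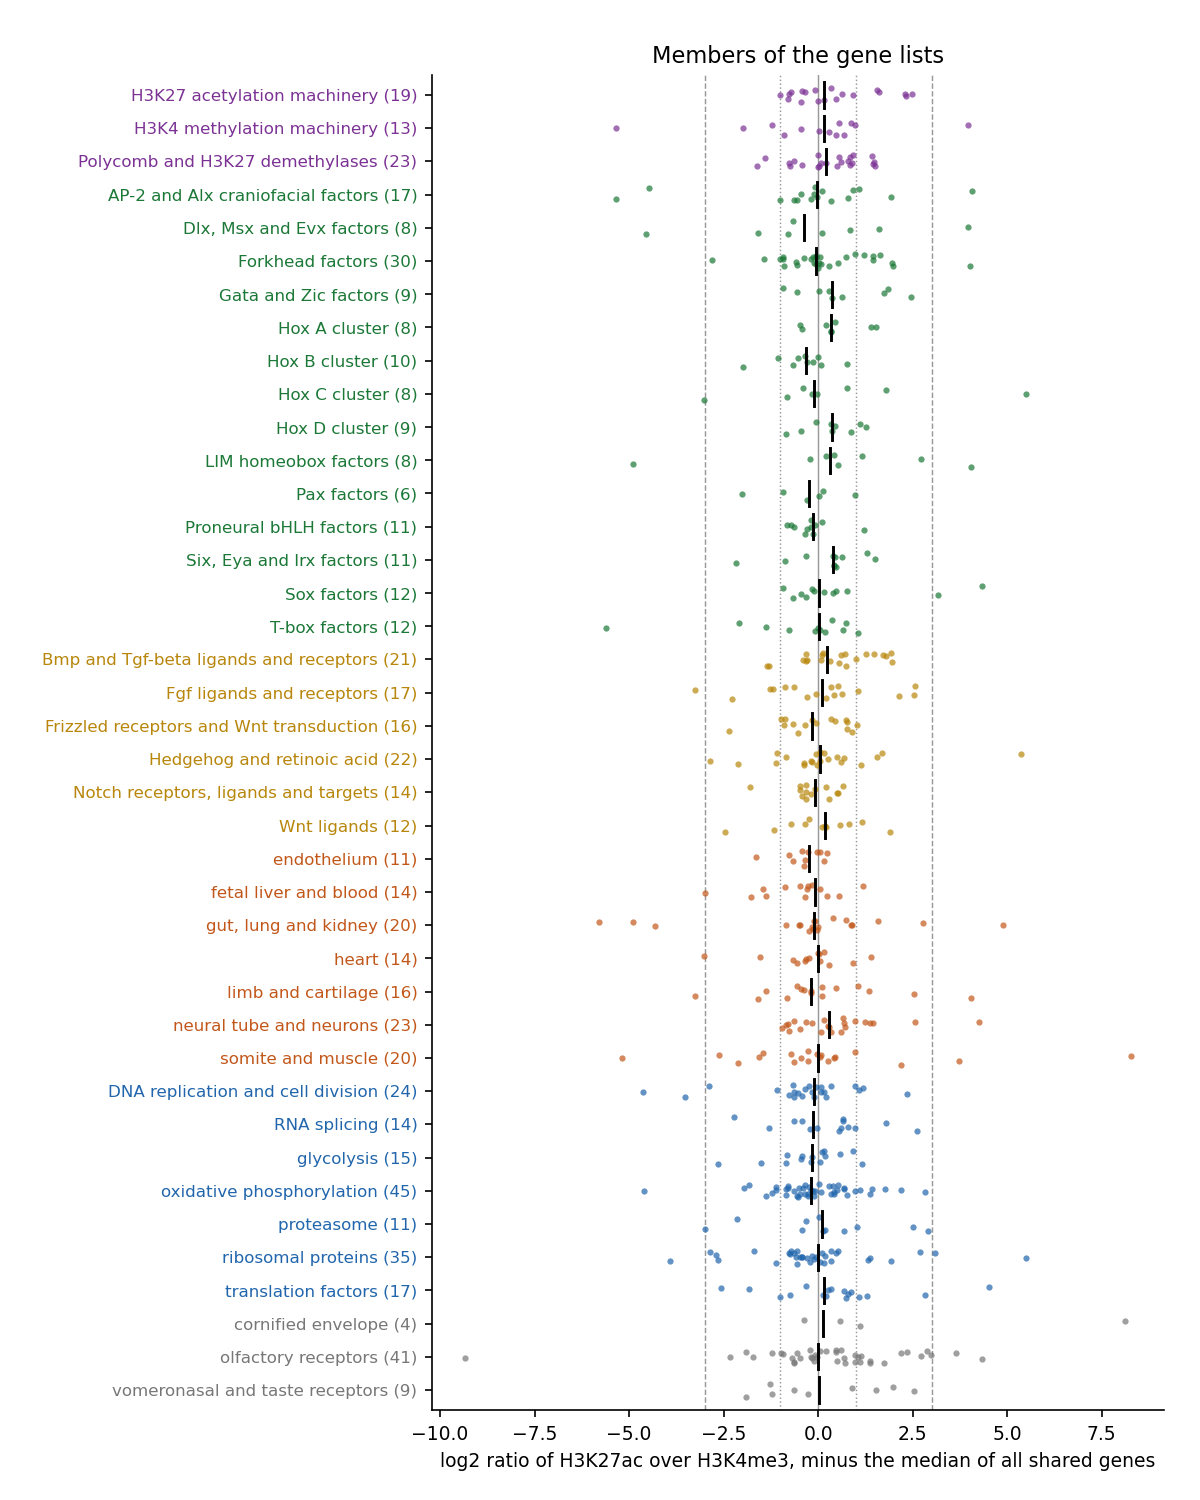
Each point is a list member with at least 20 reads, placed by its log2 ratio of H3K27ac over H3K4me3 minus the median of all shared genes; the number tested stands after each list's name. Black bars are list medians over all members; dotted and dashed lines mark 2-fold and 8-fold. The bars stay near 0 (list medians of the log2 ratio of -0.17 to 0.61, beside 0.20 for all genes) while single members of most lists reach the dashed lines.

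The leaning genes stood near the typical gene in the sections that did not choose them. The median level of the 299 genes, relative to the section mean, was 7.15 in embryo H3K27ac and 0.265 in H3K4me3, and it was 0.357 in embryo H3K27me3, 0.468 and 0.533 in the H3K27ac sections of control and arthritis paw, and 0.638 in brain H3K4me3. The median of the 331 genes was 9.71 in embryo H3K4me3 and 0.394 in H3K27ac, and 0.476, 0.546, 0.587 and 0.695 in the others in the same order. Genes tested and under 2-fold had medians of 0.761, 0.850, 0.768 and 0.903 in those 4 sections, so both classes stood below those genes in all 4. Each median in this paragraph covers only the genes that the section held. Arthritis paw and brain held 196 and 184 of the 299 genes, and 221 and 215 of the 331. They held 5423 and 5421 of the 6468 genes under 2-fold. Over all shared genes the median was 16 reads in embryo H3K27me3, 157 in control paw, 279 in arthritis paw and 123 in brain, beside 15, 154, 259.5 and 116.5 for the 299 genes and 20, 180, 286 and 127 for the 331. A gene of either class passed the minimum of 20 reads mostly through 1 section, and one under 2-fold through both, so this is a description and no support for the classes. In the other tissues the leaning genes fell about evenly on both sides. Between control paw H3K27ac and brain H3K4me3, rho with the embryo ratio was -0.0036 over 11078 genes, and 83 of 184 genes 8-fold to H3K27ac (45.1%) and 93 of 215 to H3K4me3 (43.3%) stood on the same side of that ratio's median. At 2-fold it was 674 of 1350 (49.9%) and 549 of 1108 (49.5%). The arthritis paw, set against the same brain section, gave a rho of -0.0047 over 9477 genes. Tissue, age, fixation, section and, between paw and brain, the mark differ together here and cannot be told apart.

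**Figure D5:**
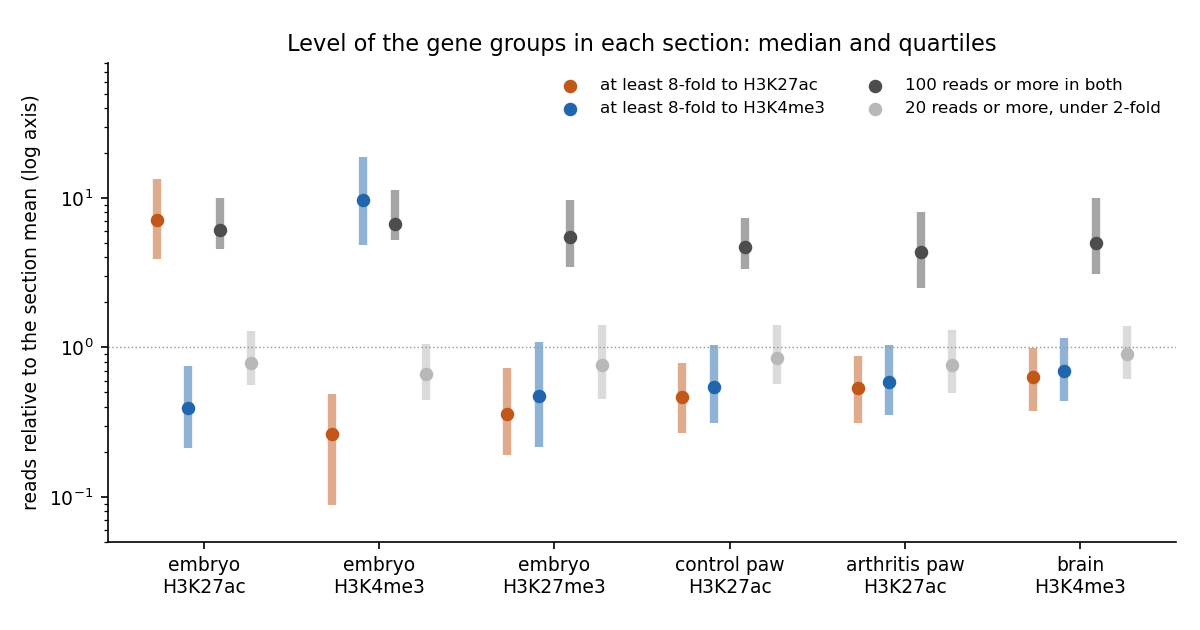
Median (points) and quartiles (bars) of the reads per gene relative to the section mean, on a log axis, in all 6 sections. Each covers the genes of a group that the section held, which are fewer in arthritis paw and brain. The 8-fold classes (orange and blue) are high in the 1 section that defines them, with medians of 7.15 and 9.71, and below 1 in the others; genes with at least 100 reads in both active marks (dark grey) have medians of 4.38 to 6.73 in all 6.

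Genes rich in both active marks were, by contrast, rich throughout. Of the 166 genes with at least 100 reads in both sections 31 leaned 2-fold and 2 8-fold, and 148 (89.2%) also held at least 100 reads in embryo H3K27me3, as did 7.04% of all shared genes, 4.01% of the 299 and 9.06% of the 331. Their median level was 6.13 in H3K27ac, 6.73 in H3K4me3, 5.46 in H3K27me3, 4.66 and 4.38 in the paws and 5.01 in brain. Arthritis paw and brain held 139 and 141 of the 166. The 8 genes with at least 1000 reads in both active marks also held at least 1000 in H3K27me3, with log2 ratios 0.68 to 0.08 below the median, and these sums are lower bounds. Larp4, an RNA-binding protein, held 3248 reads in H3K27ac, 3181 in H3K4me3 and 4171 in H3K27me3, and Tpm4, a tropomyosin, held 2049 reads in H3K27ac, 1617 in H3K4me3 and 2648. The others were Dram2, Gm14569, Cbr3, Cox6b1, Dnajc21 and Slco2b1. These 8 were chosen after their values were seen.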

How the data were processed

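The deposited values are signal per gene and spot that the authors quantile-normalised. Bowtie2, featureCounts and MACS2 and the builds hg19 and mm9 are named, per the submitters' processing notes; versions, roles and the rule that places a read in a gene were not given in the sources used here. In both tables ties within a spot were broken by the gene order of the control paw table, so 48.1% (H3K27ac) and 46.3% (H3K4me3) of the deposited values above 0 belong to genes without reads, and the mean deposited value correlates with that order (rho 0.330 and 0.348). Reads were therefore recovered from the tied ranks: along the ranks of a spot, a step back in that order starts the next count. Counts shared by under 5 genes closed the exact zone, and a gene with over 10% of its reads beyond it has a lower bound, as 60 and 66 genes have. Recovered totals are 94.0% and 94.6% of the totals that the deposited list of values implies. The log2 ratio from recovered reads correlates with the order at -0.0053, against -0.114 from deposited values, and the median ratio over 20 bins of that order ran from 0.18 to 0.30.

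Ratios used a pseudocount of 0.1 of the section mean. Named genes are the 10 highest and lowest ratios, the same among exact sums, the 3 highest and lowest of each list and all members of the 2 lists on the marks' machinery, from which the text takes a part; a few items are not reported here. The members, lists and rules were chosen with earlier results of these data known. File symbols were given RefSeq spelling (17664 by symbol, 74 by synonym, 24 not matched), and 14133 members had a promoter in the RefSeq table of GRCm38.p6. Python 3.11.15, numpy 2.4.6, pandas 2.3.3 and scipy 1.17.1 were used, and the scripts were tested on simulated data. Alternatives changed the input values, row order, pseudocount, read minimum, lower bounds, scaling, spots and counting of neighbours.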

Additional observations from a re-analysis of the deposited data

How the results depend on the processing

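The 2-fold and 8-fold counts, 1830, 1462, 299 and 331, fell to 727, 695, 90 and 141 with a pseudocount of 1, all of them genes called before. Where 100 reads were required, the 2-fold counts were 583 and 536. Only 1819 genes were then tested, so these are larger shares than those of the 9760. With the deposited values the counts were 2333, 1782, 317 and 371. Under the others they stayed within 1.5 times, including the section median as scale (1886, 1695, 366 and 409). Without array rows 41, 45 and 48, an alternative chosen after seeing the data, they were 1841, 1591, 300 and 355. The share of leaning genes on the same side in control paw over brain, 49.8% of 2458, was 52.4% with deposited values and 46.9% with 100 reads. The correlation with CpG, -0.013, was near 0 throughout and of either sign, with 0.013 in even columns, 0.0026 in odd columns and 0.0052 with deposited values. Of 530 list settings 10 moved by more than counting error, among them 4 for olfactory receptors. No paired analysis was possible because each mark has 1 section and the design gives no test. Depth limits the genes under 20 reads, since only 54.9% of the members reached that number.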

Other observations

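Some genes held reads on single array rows, in the embryo H3K27me3 section as well as in the active ones; these were chosen after their values were seen. Row 48 held 4.80% of the reads of the H3K4me3 section and 5.17% of those of the H3K27me3 section, but it held 168 of 336 (50%) and 227 of 611 (37.2%) of the reads of Ifi47, an interferon-inducible GTPase. In H3K27ac it held 56 of 281, in a row with 1.43% of the section's reads. For Uqcrh, of respiratory complex III, it held 77 of 167 in H3K4me3, 142 of 311 in H3K27me3 and 19 of 147 in H3K27ac. On row 41 lay 132 of 700 H3K27ac reads of Rnf40, a ubiquitin ligase of histone H2B, where the row had 8.95% of the section's reads, and 88 of 102 of its H3K27me3 reads, where the row had 7.03%. Its neighbour Ccdc189 gave 132 of 699 and 87 of 101. With 6 and 4 H3K4me3 reads both lean to H3K27ac.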
